A study of Mus musculus with 9 samples.

Results

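The interleukin 6 family and its STAT3 feedback were followed in 10 genes: the ligand genes Il6, Lif, Il11 and Clcf1, the receptor genes Il6st, Il6ra, Lifr and Osmr, the transcription factor gene Stat3 and the feedback inhibitor gene Socs3. Their mouse symbols were matched to the Ensembl identifiers of the deposited table, and 10 of 10 were found among its 55401 genes. The study sequenced RNA of primary fibroblasts from newborn skin of wild-type mice, 3 libraries in each of 3 groups. The sample records give 10% fetal bovine serum for every library, control included. Control cells are otherwise described by no more than that word, without a named medium or a duration. TCM stands for tumor cell-conditioned medium, which was DMEM with 10% fetal bovine serum left for 24 h on YUMM1.7, a line of mouse melanoma cells. In the last group, called lipid-depleted TCM here, that medium was first treated with Cleanascite, a reagent that adsorbs lipids. Control medium put through the same reagent is not among the labelled groups. Lipid loss and other effects of the reagent therefore cannot be told apart, and lipid removal below names the treatment. Nothing in the labels says that replicates were separate animals or cultures, so each p-value speaks only of the spread among the libraries, and that spread may be technical.

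Cytokines of this family signal through receptors that contain the shared chain gp130, the product of Il6st. Interleukin 6 and interleukin 11 first bind a chain of their own, whereas leukemia inhibitory factor and oncostatin M join gp130 to the products of Lifr and Osmr. Receptor-bound JAK kinases phosphorylate STAT3, which enters the nucleus and switches on genes that include Socs3, and the Socs3 protein in turn blocks the receptor complex. In tumor stroma, fibroblasts are a known source of interleukin 6 and leukemia inhibitory factor.

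The upstream sequences of Il6, Socs3 and Il6ra are shown as examples of different courses: Il6 and Socs3 were high in TCM, and Il6ra was higher still after lipid removal. Windows that overlap exons of coding transcripts, such as that of Osmr, are not shown. Each is the 250 bases before the RefSeq start site (GRCm38.p6), 5′ to 3′ on the strand of the gene. Capitals mark matches on either strand to TTCNNNGAA (STAT factors), TGANTCA (AP-1), TTGCNNAA (C/EBP factors) or the NF-kB consensus.
Il6, chr5:30012864-30013113, plus strand: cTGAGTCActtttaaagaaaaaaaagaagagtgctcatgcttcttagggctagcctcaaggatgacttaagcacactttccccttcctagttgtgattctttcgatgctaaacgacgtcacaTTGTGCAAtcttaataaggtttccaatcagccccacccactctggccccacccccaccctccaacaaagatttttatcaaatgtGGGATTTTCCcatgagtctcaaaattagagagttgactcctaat
Socs3, chr11:117969367-117969616, minus strand: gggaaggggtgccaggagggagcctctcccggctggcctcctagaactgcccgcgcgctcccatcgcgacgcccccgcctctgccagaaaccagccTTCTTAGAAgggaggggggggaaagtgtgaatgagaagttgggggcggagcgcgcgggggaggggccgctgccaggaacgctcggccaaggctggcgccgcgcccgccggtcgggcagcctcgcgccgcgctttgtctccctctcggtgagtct
Il6ra, chr3:89913197-89913446, minus strand: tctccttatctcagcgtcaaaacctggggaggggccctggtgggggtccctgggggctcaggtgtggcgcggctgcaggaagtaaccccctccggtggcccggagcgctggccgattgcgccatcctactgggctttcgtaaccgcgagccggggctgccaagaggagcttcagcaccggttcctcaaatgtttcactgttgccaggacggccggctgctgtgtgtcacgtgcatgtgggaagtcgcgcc
The Il6 window holds an AP-1 match TGAGTCA (249 to 243 bases before the start), a C/EBP match TTGTGCAA (128 to 121 bases before the start) and an NF-kB match GGGATTTTCC (44 to 35 bases before the start). The Socs3 window holds a STAT match TTCTTAGAA (154 to 146 bases before the start), and the window overlaps an exon of a non-coding Socs3 transcript. None of these matches overlap each other. No searched pattern is in the Il6ra window. Windows were in the RefSeq table for 9 of the 10 genes, and apart from Il6 and Socs3 the genes with a match were Il11 and Lif, each to AP-1. The Il11 match lay before the start site at 4778141 and not before that at 4782857. The Lif window overlaps an exon of a coding transcript. Of 32851 windows of this length, 7.02% hold the STAT pattern, 6.75% that of AP-1, 9.56% that of C/EBP and 3.90% that of NF-kB. A match describes letters and is not a measured binding site.

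All values are the authors' normalized counts, and 51015024 to 64965906 reads per library stand behind them. A gene is called here at an adjusted p below 0.05 in limma on log2(normalized count + 1), adjusted by Benjamini-Hochberg over 16950 tested genes. Fold changes are on that scale, which understates the change of low genes, and all 10 members passed the filter on low values. The TCM libraries differed most from each other: the chi-square per degree of freedom of their pairs was 16.0 to 39.0, against 2.47 to 6.91 among control and 3.43 to 8.19 among lipid-depleted libraries, and the pairs with TCM replicate 1 were the highest. Without that library 7, 8 and 7 members were called in the 3 comparisons, as with it. Of 10 fibroblast markers, all tested, 4 rose and 4 fell with TCM, and their summed counts were 2433318 to 2502301 among control, 1240704 to 1455161 among TCM and 1637492 to 1692442 among lipid-depleted libraries. Col1a1 averaged 927289 in control and 272808 with TCM, and Pdgfra 13768 and 37493. The part of this shift in the results was not tested. The mast cell genes Cpa3, Mcpt4, Tpsb2 and Fcer1a and the lymphocyte genes Cd3e and Ms4a1 had no read. The mitochondrial share of reads was 1.78% to 1.87% among control, 2.69% to 3.16% among TCM and 1.85% to 2.15% among lipid-depleted libraries.

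The first comparison addresses the effect of melanoma-conditioned medium on these genes. With TCM, Il6, Clcf1, Il6st, Il6ra, Osmr and Socs3 rose and Lifr fell, while Lif, Il11 and Stat3 were not called. These 7 called members of 10, 6 of them higher, stand beside 60.5% of all tested genes called, 29.5% higher and 31.0% lower. The median member changed by 0.51 on the log2 scale and the median tested gene by 0.00. The second comparison addresses the removal of lipids from that medium. There Il6, Il6st, Lifr, Osmr, Stat3 and Socs3 fell, Lif and Il6ra rose, and Il11 and Clcf1 were not called. These 8 of 10, 2 higher and 6 lower, stand beside 45.2% of all tested genes, 22.7% higher and 22.5% lower, with a median member at -0.33 and a median gene at 0.01. Set against control, lipid-depleted medium left Lif, Clcf1, Il6ra, Osmr and Socs3 higher and Lifr and Stat3 lower. That is 7 of 10, 5 higher and 2 lower, beside 60.0% of all tested genes, 29.4% higher and 30.6% lower, with medians of 0.29 and 0.00. In each comparison the libraries of both groups were apart for 8 of 10 members, beside 63.9%, 52.4% and 71.2% of all tested genes in this order. The comparisons share libraries, so their values are set side by side and do not count as separate evidence.

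**Figure D1:**
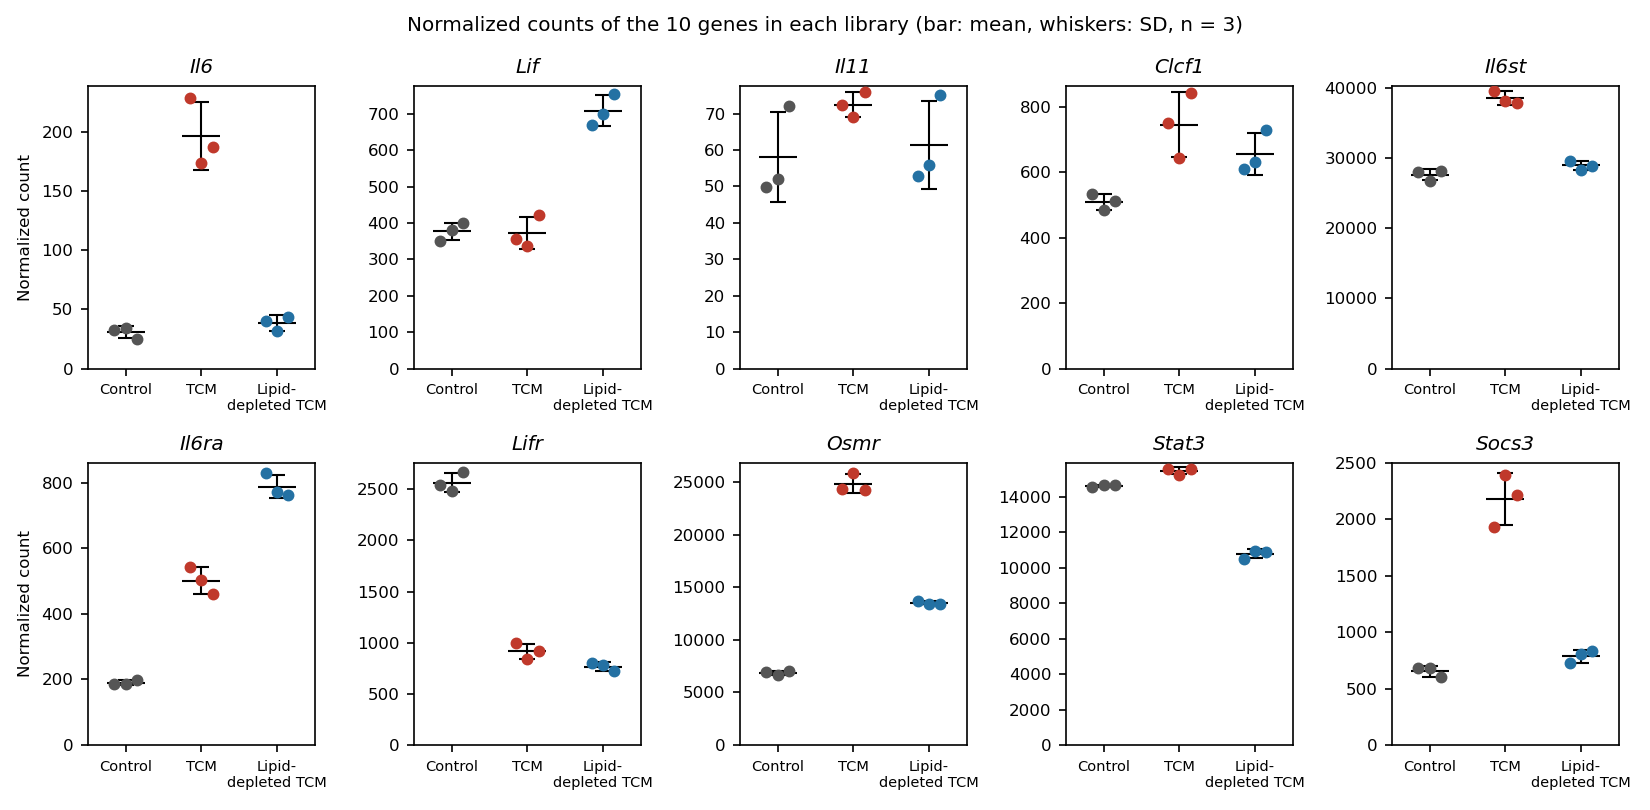
Normalized counts (vertical axes from 0) of the 10 genes in each of the 9 libraries, by group. Points are libraries, the bar is the mean and whiskers are the SD (n = 3), and Il6 and Socs3 stand high in TCM while Lif stands high after lipid removal.

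**Figure D2:**
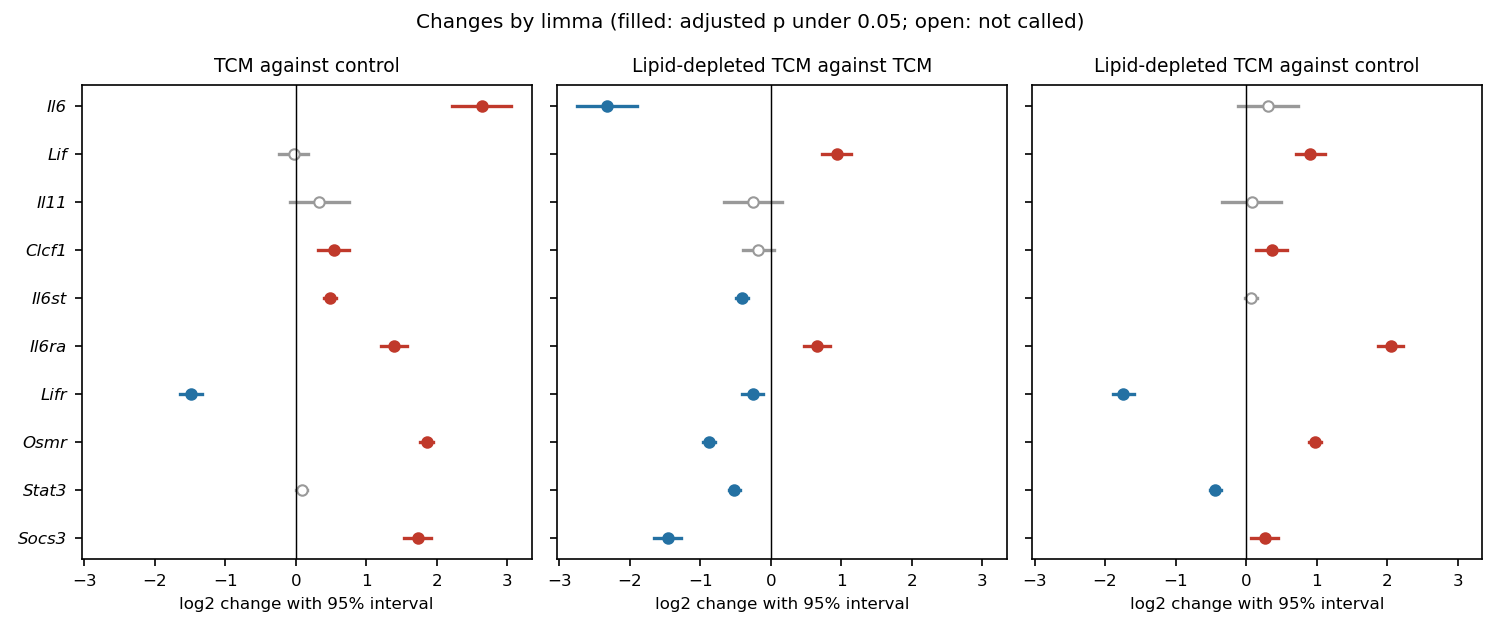
The log2 change of each gene (horizontal axis) with its 95% interval from limma, in 3 panels for the 3 comparisons, with filled points for called and open points for uncalled genes. Il6 swings from 2.64 with TCM to -2.32 on lipid removal.

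Among the ligands, Il6 (chromosome 5, 30013114 to 30019981, plus strand, GRCm38) rose with TCM and fell on lipid removal. It had 32.9, 34.7 and 25.2 normalized counts in the control libraries, 229, 174 and 188 in those given TCM, and 40.5, 31.4 and 44.0 in those given lipid-depleted medium. Every TCM library lay above all others, and the control and lipid-depleted libraries overlapped. The log2 change was 2.64 with TCM (SE 0.19, 6.21-fold, limma adjusted p = 1.2e-07) and -2.32 on lipid removal (SE 0.19, limma adjusted p = 1.1e-06). Between lipid-depleted medium and control it was 0.31 (95% interval -0.11 to 0.73, limma adjusted p = 0.184), which leaves room for a level above control. Il6 is a scarce transcript here, with 829 reads over all 9 libraries. The mitochondrial share given above was also highest in TCM, and its part in the course of Il6, Il6st, Osmr and Socs3 was not tested.

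Lif (chromosome 11, 4257557 to 4272514, plus strand) encodes leukemia inhibitory factor and was higher where lipids had been removed. Its counts were 352, 381 and 399 under control, 356, 338 and 422 under TCM, and 670.2, 699.6 and 755 under lipid-depleted medium. The control and TCM libraries overlapped, and every lipid-depleted library lay above both. In lipid-depleted medium Lif stood 0.93 above TCM (log2, SE 0.09, 1.91-fold, limma adjusted p = 5.9e-06). It stood 0.91 above control (limma adjusted p = 3.2e-06). With TCM the difference from control was -0.03 (95% interval -0.23 to 0.18, limma adjusted p = 0.828), and its sign turned with libraries scaled to the same total (0.13) and without control replicate 3, TCM replicate 1 or TCM replicate 2 (0.02, 0.00 and 0.04).

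Clcf1 (chromosome 19, 4214238 to 4223490, plus strand) encodes cardiotrophin-like cytokine factor 1, which acts through the receptor of ciliary neurotrophic factor. It had 533, 485 and 512 normalized counts among control libraries, 750.1, 644 and 844 with TCM, and 611, 631 and 731 with lipid-depleted medium. Both media stood above control, and they overlapped each other. The log2 change was 0.54 with TCM (SE 0.10, limma adjusted p = 0.00047) and 0.36 with lipid-depleted medium (limma adjusted p = 0.00732). Between the media it was -0.18 (95% interval -0.40 to 0.04, limma adjusted p = 0.171), which became a call without TCM replicate 2 (-0.28, limma adjusted p = 0.0281). Its exons share 311 bases with AC109138.7 on the same strand, so the assignment of its reads is uncertain.

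Il11 (chromosome 7, 4772373 to 4782859, minus strand) encodes interleukin 11, a cytokine linked to fibrosis, and was called in no comparison. Its counts were 49.9, 52.1 and 72.2 in control cells, 72.2, 69.1 and 76.1 after TCM, and 53.0, 55.8 and 75.2 after lipid-depleted medium. The groups overlapped throughout. Its log2 difference was 0.33 with TCM (95% interval -0.08 to 0.75, limma adjusted p = 0.152), -0.25 on lipid removal (-0.67 to 0.16, limma adjusted p = 0.309) and 0.08 between lipid-depleted medium and control (-0.34 to 0.50, limma adjusted p = 0.744). The TCM difference became a call without control replicate 3 (0.50, limma adjusted p = 0.0495) and with libraries scaled to the same total (0.49, limma adjusted p = 0.0395). The difference between lipid-depleted medium and control turned sign without control replicate 1 (-0.02) or lipid-depleted replicate 3 (-0.07). Il11 had 582 reads in all libraries together.

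Of the receptor chains, Il6st (chromosome 13, 112464070 to 112510086, plus strand) encodes gp130, and it rose moderately with TCM. It had 28002, 26689 and 28075 normalized counts in control, 39606, 38109 and 37861 in cells given TCM, and 29526, 28349.7 and 28909.8 in cells given the lipid-depleted medium. TCM stood above both other groups, and the lipid-depleted libraries lay narrowly above control. The log2 change was 0.48 with TCM (SE 0.04, limma adjusted p = 3.8e-07) and -0.41 on lipid removal (SE 0.04, limma adjusted p = 3.8e-06). The remaining 0.07 above control (95% interval -0.02 to 0.16, limma adjusted p = 0.156) became a call with libraries scaled to the same total (0.22), with quantile normalization (0.23) and in a fit of these groups alone (limma adjusted p = 0.0463).

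Osmr (chromosome 15, 6813577 to 6874969, minus strand) encodes the oncostatin M receptor chain that pairs with gp130. Its counts were 6920.4, 6639 and 7039.6 among control libraries, 24375, 25932 and 24321 under TCM, and 13709, 13439.8 and 13461 under lipid-depleted medium. The 3 groups were fully apart, with lipid-depleted medium in the middle. Osmr changed by 1.86 with TCM (log2, SE 0.04, 3.62-fold, limma adjusted p = 2.1e-12) and by -0.88 on lipid removal (SE 0.04, limma adjusted p = 6.8e-09). It stayed 0.98 above control after that (limma adjusted p = 5.9e-10). Osm, the gene of the ligand oncostatin M, had 1 read over all 9 libraries.

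Lifr (chromosome 15, 7090614 to 7197489, plus strand) encodes the receptor chain of leukemia inhibitory factor and was the member that fell with TCM. It had 2543, 2482 and 2665 normalized counts in control cells, 993, 841 and 915 with TCM, and 801, 779 and 719 with lipids removed. Control stood far above both media, and each lipid-depleted library lay below every TCM library. The log2 change was -1.49 with TCM (SE 0.07, limma adjusted p = 1.7e-09) and a further -0.26 on lipid removal (SE 0.07, limma adjusted p = 0.00934). The latter call was lost without lipid-depleted replicate 3 (-0.21, limma adjusted p = 0.0506). Pericyte markers, 6 of 6, also fell with TCM, their summed counts being 27632 to 28615 per control library and 12343 to 13922 per TCM library. On lipid removal 5 of them rose, to a sum of 17156 to 17360.4. Their part in the fall of Lifr was not tested, and in bulk RNA fewer cells of a type and less RNA per cell cannot be told apart.

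Il6ra (chromosome 3, 89864059 to 89913196, minus strand) encodes the chain that binds interleukin 6 itself, and it rose with TCM and again on lipid removal. Its counts were 185, 185 and 199 in control cells, 542, 503 and 459 in TCM-treated cells, and 829, 772 and 763 once lipids were removed. The 3 groups were fully apart and climbed in that order. The log2 change was 1.40 with TCM (SE 0.08, 2.63-fold, limma adjusted p = 1.6e-08) and 0.65 on lipid removal (SE 0.08, limma adjusted p = 4.0e-05), which left it 2.05 above control (limma adjusted p = 4.3e-10). Macrophages also express this gene. The summed counts of 7 macrophage markers were 308 to 395 among control, 252 to 303 among TCM and 454 to 471 among lipid-depleted libraries, while Ptprc, Adgre1 and Itgam had 9, 7 and 4 reads over all libraries. Lyz2 carried the higher sum after lipid removal, with group means of 204, 127 and 365, whereas Csf1r went from 78.9 to 16.5 and 11.8 and Cd68 from 43.3 to 92.1 and 52.8. The sum of 7 melanocyte and melanoma markers, most of it Mitf, was 757 to 863, 880.3 to 955 and 1002 to 1121, and the part of either list in the course of Il6ra was not tested. The antisense gene Gm42809 shares 242 exon bases with Il6ra.

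Stat3 (chromosome 11, 100885098 to 100939540, minus strand) encodes the transcription factor that these receptors activate by phosphorylation, which RNA does not measure. It had 14522, 14630.1 and 14637 normalized counts in control, 15583, 15222 and 15575 under TCM, and 10498, 10956 and 10884 under lipid-depleted medium. Control and TCM lay close together without overlap, and the lipid-depleted libraries lay below both. The log2 difference of 0.08 with TCM was not called (95% interval 0.00 to 0.16, limma adjusted p = 0.0651), but it was called with libraries scaled to the same total (0.24), TMM (0.10), quantile normalization (0.18), edgeR (0.10) and without TCM replicate 2 (0.09). On lipid removal Stat3 changed by -0.52 (SE 0.04, 1.43-fold lower, limma adjusted p = 2.1e-07), to -0.44 relative to control (limma adjusted p = 3.7e-07). Its exons share 72 bases with Stat5a on the opposite strand.

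Socs3 (chromosome 11, 117966079 to 117970047, minus strand) encodes the suppressor of cytokine signaling that binds gp130 and inhibits JAK kinases. Its counts were 683, 684 and 599 among control libraries, 1936, 2392 and 2219 with TCM, and 724, 805 and 834 with lipids removed. The TCM libraries lay far above all others, and the lipid-depleted ones lay narrowly above control. The log2 change was 1.73 with TCM (SE 0.09, 3.32-fold, limma adjusted p = 3.4e-09) and -1.47 on lipid removal (SE 0.09, limma adjusted p = 4.8e-08). The remaining 0.26 above control (95% interval 0.08 to 0.45, limma adjusted p = 0.019) lost its call without control replicate 3 (limma adjusted p = 0.0887), lipid-depleted replicate 2 (limma adjusted p = 0.0608) or lipid-depleted replicate 3 (limma adjusted p = 0.0804). Where a member's groups were apart, an exact permutation test (two-sided) gave p = 0.1, and 3 against 3 libraries allow no smaller value.

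Levels of different genes were compared per kb of exon. In control the order was Il6st, Stat3, Osmr, Lifr, Socs3, Clcf1, Lif, Il11, Il6ra and Il6, from 2486 ± 70.3 normalized counts per kb (SD, n = 3) for Il6st to 12.7 ± 2.10 for Il6. Lifr and Socs3 overlapped there, and every other gene stood above the next in all libraries. With TCM, Osmr at 2054 ± 75.5 per kb stood above Stat3 at 1623 ± 21.6, and the libraries of Lif (85.4 ± 10.2), Lifr (85.0 ± 7.07) and Il6 (81.1 ± 11.8) overlapped. With lipids removed, Stat3 (1131 ± 25.9) overlapped with Osmr (1118 ± 12.4), Clcf1 (173 ± 16.8) overlapped with Lif (163 ± 9.91), and Il6 was again the lowest at 15.9 ± 2.67. The per-kb ratio of Osmr to Lifr was 2.38 ± 0.0355 among control, 24.3 ± 2.86 among TCM and 15.7 ± 0.791 among lipid-depleted libraries. The ratio of Il6st to Il6ra was 113 ± 4.18, 60.0 ± 3.76 and 28.6 ± 0.889 in the same order, so transcripts of the interleukin 6 binding chain were less scarce relative to gp130 in both media.

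**Figure D3:**
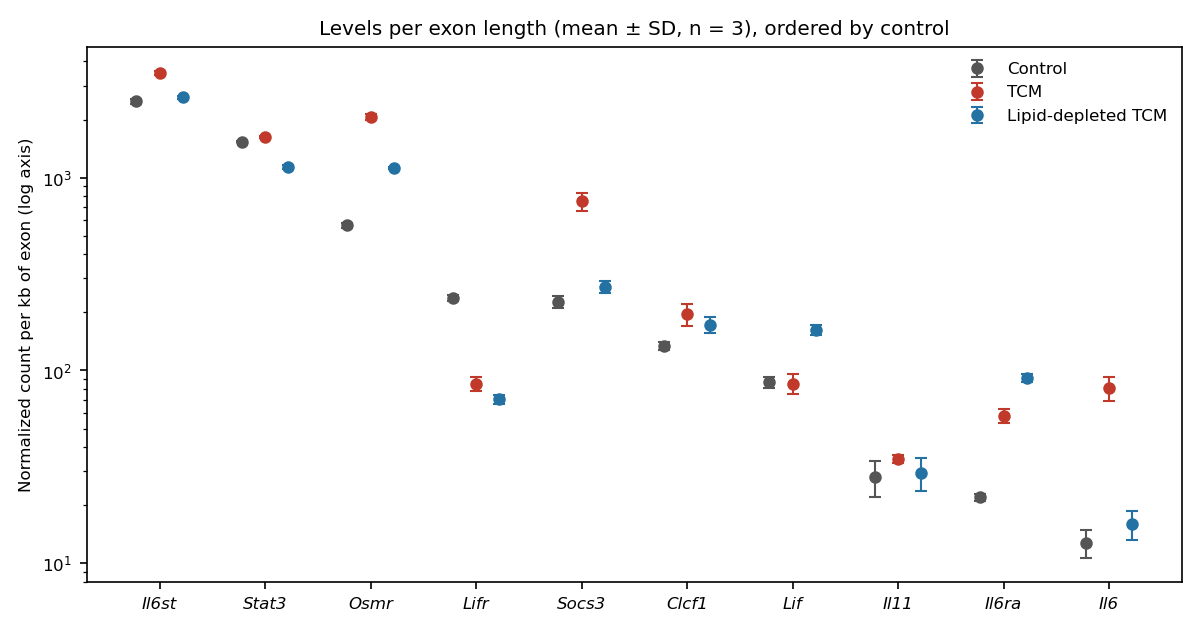
Normalized count per kb of exon (log axis) of the 10 genes, ordered by their control level, with a point for the mean of each group and whiskers for the SD (n = 3). Il6st is the highest in each group, and Osmr and Lifr, neighbours in the control order, move apart in both media.

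By Pearson correlation of log2(normalized count + 1) over the 9 libraries, among 12322 genes, those most like Il6 were Hax1 (0.992), Cldn12 (0.989), Dcbld2 (0.987), Stn1 (0.987) and Ccp110 (0.986), with r in parentheses. Those most like Socs3 were Stac2 (0.993), Epop (0.990), Ftsj3 (0.990), Eif2b3 (0.989) and Stn1 (0.989). Such values rest mainly on 3 group levels within shared libraries and are a description. Stac2 was like Socs3 in size too, with group means of 493, 1668 and 567 normalized counts, whereas Hax1 moved from 4475 to 5694 and 4662.

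The rest of the pathway was described by 69 genes in 5 lists, of which 60 passed the filter. With TCM 28 of the 60 rose and 12 fell, with a median of 0.17, beside 29.5% and 31.0% of all tested genes. On lipid removal 11 rose and 26 fell, with a median of -0.19, beside 22.7% and 22.5%. Lipid-depleted medium had 20 higher and 19 lower than control, beside 29.4% and 30.6%. With libraries scaled to the same total, the median of all tested genes lay at 0.15 in both comparisons with control, and the splits there became 41 to 8 with TCM and 28 to 11 with lipid-depleted medium.

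Of the other ligand genes, Osm, Ctf2, Cntf, Il27, Ebi3 and Il31 did not pass the filter on low values. Ctf1, cardiotrophin 1, changed by -0.55 with TCM (limma adjusted p = 0.0229), a call that was lost without control replicate 1 (-0.52, limma adjusted p = 0.0673), control replicate 2 (-0.48, limma adjusted p = 0.0827) or TCM replicate 1 (-0.41, limma adjusted p = 0.0756). Il27ra, the interleukin 27 chain that pairs with gp130, rose by 0.59 with TCM (limma adjusted p = 0.000721). In lipid-depleted medium it stood 0.83 above control (limma adjusted p = 4.7e-05). Between the media Il27ra was not called (0.24, limma adjusted p = 0.121), though each lipid-depleted library lay above every TCM library. Il11ra1, which binds interleukin 11, rose by 0.43 on lipid removal (limma adjusted p = 1.8e-05), and Cntfr, the ciliary neurotrophic factor receptor, ended 0.48 above control (limma adjusted p = 0.0183). The call of Cntfr was lost without control replicate 1 (limma adjusted p = 0.058), control replicate 3 (limma adjusted p = 0.0782) or lipid-depleted replicate 2 (limma adjusted p = 0.0505). Il31ra, which pairs with Osmr to bind interleukin 31, was named after its values were seen: it fell in all 3 comparisons (-0.97, -1.64 and -2.61) from a control mean of 49.2.

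Among 12 tested kinases, STATs and adaptors, 4 rose and 4 fell with TCM, and 3 rose and 4 fell on lipid removal, beside 60.5% and 45.2% of all tested genes called in either direction. Jak2, a kinase bound to these receptors, averaged 5167 ± 105 normalized counts in control cells, 10079.9 ± 466 after TCM and 6373 ± 55.2 after lipid-depleted medium. Its log2 change was 0.96 with TCM (SE 0.04, limma adjusted p = 1.0e-09) and -0.66 on lipid removal (limma adjusted p = 1.0e-07). Stat2, a factor of interferon signaling, changed by 1.10 (limma adjusted p = 7.2e-09) and -1.17 (limma adjusted p = 1.3e-08). Gab1, an adaptor of receptor signaling, fell with TCM (-0.44, limma adjusted p = 0.000162) and was below control after lipid removal too (-0.31).

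Among 14 feedback and shedding genes, 3 rose and 3 fell with TCM, and 1 rose and 5 fell on lipid removal, beside the same 60.5% and 45.2% of all tested genes. In lipid-depleted medium 8 were lower than in control, beside 30.6% of all tested genes. Socs2, a suppressor of growth hormone signaling, fell with TCM from a mean of 418 to 209.6 normalized counts (limma adjusted p = 3.3e-05). In lipid-depleted medium Socs2 stood at -0.69 relative to control. Socs1, an inhibitor of interferon signaling, averaged 70.9, 53.8 and 45.9 normalized counts in the groups and was called for lipid-depleted medium against control (-0.62, limma adjusted p = 0.0149), but not without control replicate 1 (limma adjusted p = 0.061) or lipid-depleted replicate 3 (limma adjusted p = 0.0581). Cish, a SOCS family gene induced by STAT5, fell with TCM (-0.52, limma adjusted p = 0.00177), and Socs5 fell on lipid removal (-0.48, limma adjusted p = 3.2e-06). Pias3 encodes an inhibitor of STAT3 and was low in both media, by -0.95 with TCM (SE 0.05, limma adjusted p = 1.1e-08) and -0.78 with lipid-depleted medium (limma adjusted p = 7.1e-08). The sheddases Adam17 and Adam10, which can release the interleukin 6 receptor from the membrane, changed by -0.24 and -0.23 on lipid removal (limma adjusted p = 0.000754 and 0.00306). Adam17 had risen with TCM (0.32, limma adjusted p = 4.4e-05). Adam10 was not called with TCM (-0.09) and ended below control (-0.32, limma adjusted p = 0.000135).

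Of 28 tested genes listed as STAT3 targets, 20 rose with TCM and 2 fell, and on lipid removal 6 rose and 15 fell. Of all tested genes 29.5% rose and 31.0% fell with TCM, and 22.7% rose and 22.5% fell on lipid removal. Lipid-depleted medium had 15 higher and 5 lower than control, beside 29.4% and 30.6%. The list medians were 0.71, -0.43 and 0.38, beside 0.00, 0.01 and 0.00 for all tested genes. The list was chosen with earlier results of these data known, so its counts and medians are a description. Bcl3, a nuclear partner of NF-kB, had 339, 344 and 306 normalized counts in control cells, 1105, 1883 and 1798 with TCM, and 567, 634 and 651 with lipids removed. The groups were apart, with a log2 change of 2.23 with TCM (SE 0.16, limma adjusted p = 8.6e-08), or 2.48 without TCM replicate 1. Cebpd, a transcription factor of the acute-phase response, had 204, 207 and 215, then 473, 1261 and 1255, then 447, 527 and 486 in the same order. Its TCM replicate 1 lay among the lipid-depleted libraries. Its log2 change with TCM was 2.12 (SE 0.28, limma adjusted p = 2.7e-05), or 2.59 without that library, and on lipid removal -0.90, or -1.37 without it. On lipid removal its call (limma adjusted p = 0.0187) was lost without TCM replicate 2 (limma adjusted p = 0.0766), TCM replicate 3 (limma adjusted p = 0.0875), lipid-depleted replicate 1 (limma adjusted p = 0.0611) or lipid-depleted replicate 3 (limma adjusted p = 0.0501). Serpina3n, a secreted protease inhibitor with close paralogs that could take some of its reads, changed by 1.88 with TCM (limma adjusted p = 7.3e-07) and -1.90 on lipid removal (limma adjusted p = 1.6e-06).

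Some listed targets took another course than Socs3. Saa3, an acute-phase apolipoprotein, averaged 19.8, 6.67 and 129 normalized counts under control, TCM and lipid-depleted medium, a log2 change of -1.65 with TCM (limma adjusted p = 0.00418) and 4.28 on lipid removal (SE 0.42, limma adjusted p = 4.3e-06). Without TCM replicate 1 these changes of Saa3 were -1.06 and 3.68. Hp, the hemoglobin-binding protein haptoglobin, averaged 269 ± 11.3, 704 ± 60.1 and 714 ± 124 (SD, n = 3), and the media differed by 0.01 (95% interval -0.23 to 0.25). Fos, an immediate-early factor, fell on lipid removal (-1.40, SE 0.21, limma adjusted p = 0.000169) and was not called with TCM (0.47), except without TCM replicate 2 (0.67, limma adjusted p = 0.0138) or lipid-depleted replicate 2 (limma adjusted p = 0.0387). Besides Saa3, the listed target that fell with TCM was Ccnd1, cyclin D1 (-0.20), which was named after its values were seen.

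**Figure D4:**
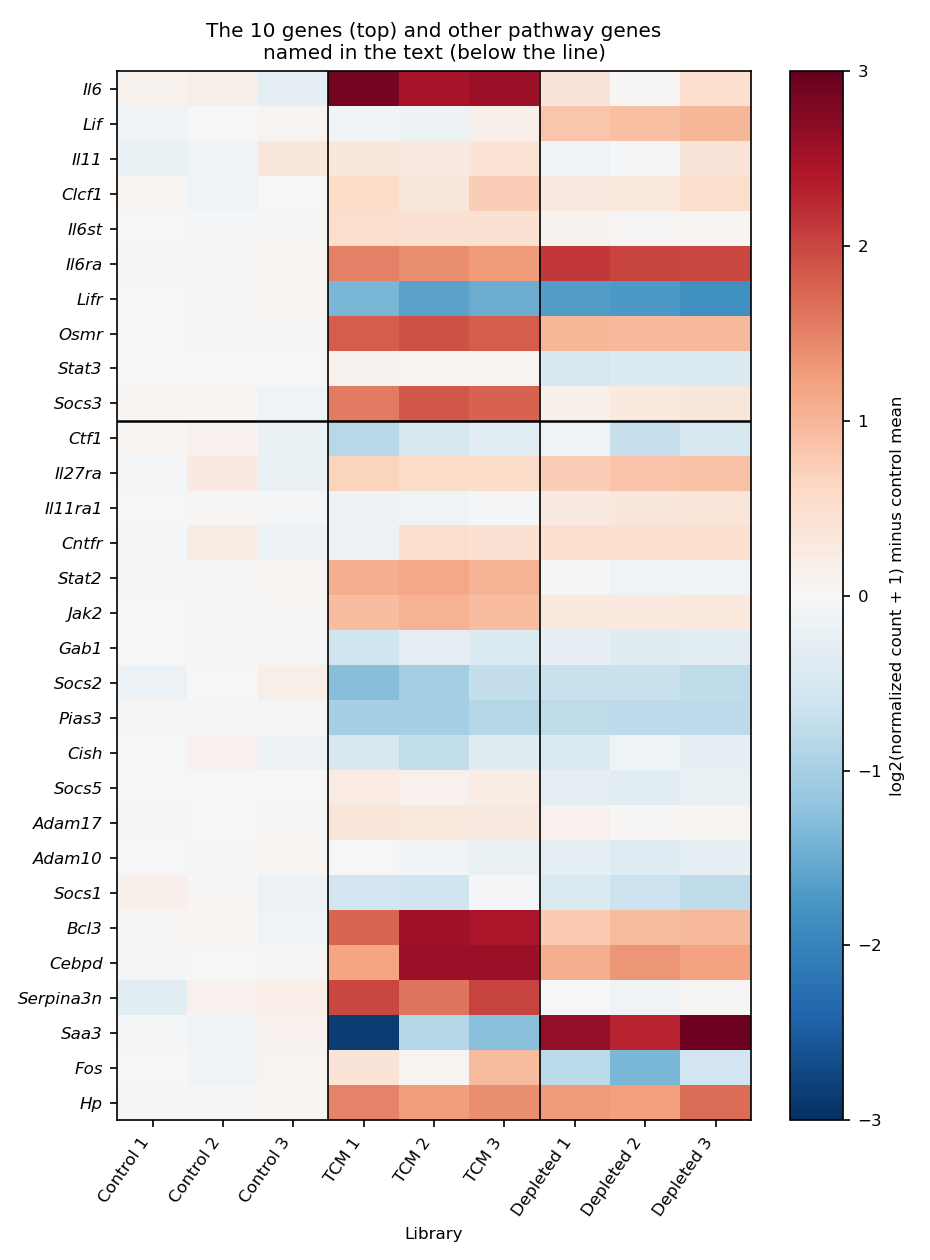
log2(normalized count + 1) of each library minus the control mean (color scale) for the 10 genes above the line and other named pathway genes below it, with libraries in columns by group. Bcl3 and Jak2 are redder with TCM than with lipid-depleted medium, as Socs3 is, Cebpd is so except in TCM replicate 1, and Pias3 and Socs2 are blue in both media.

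**Figure D5:**
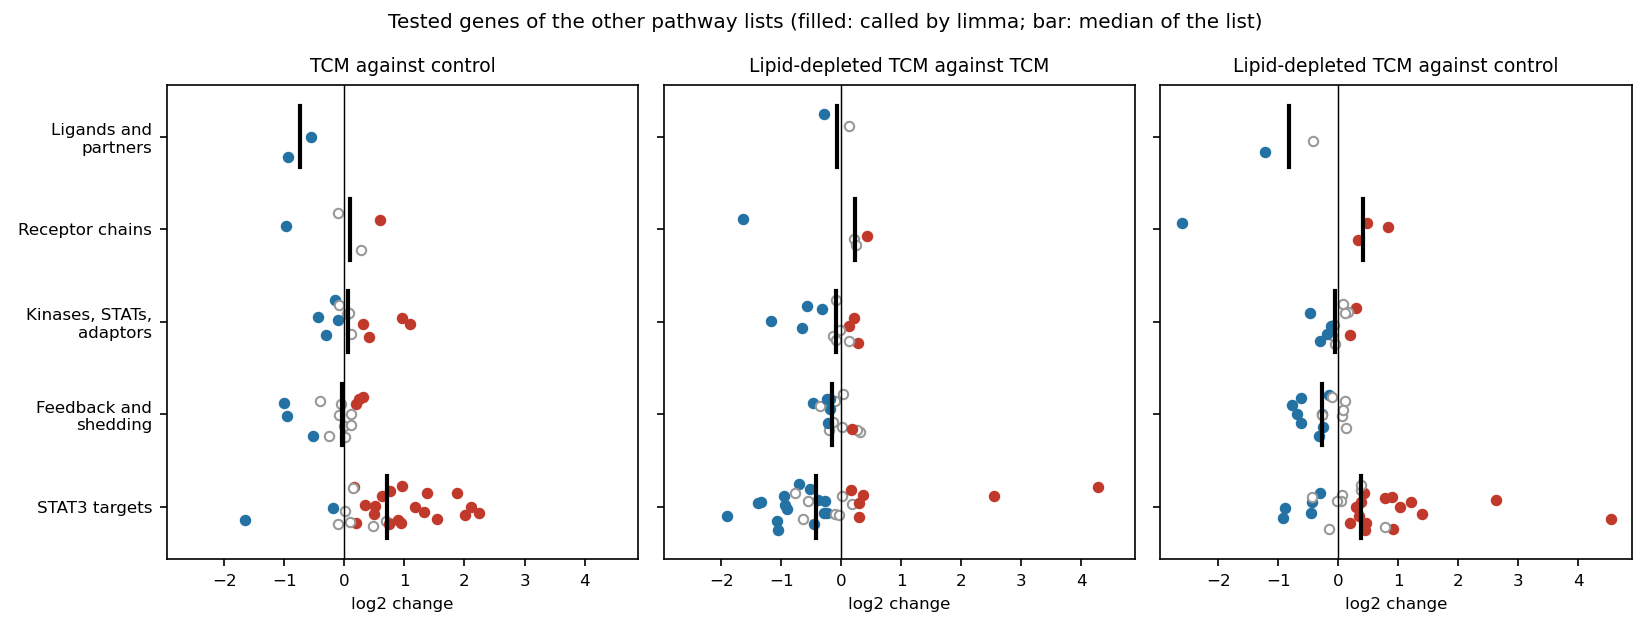
log2 change (horizontal axis) of each tested gene of the 5 other lists in the 3 comparisons, with filled points for called genes, open points for the others and a bar for the median of each list. The STAT3 targets lie mostly to the right with TCM and mostly to the left on lipid removal, with medians of 0.71 and -0.43. The lists were chosen with earlier results of these data known.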

How the data were processed

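The labels' protocols name a Qiagen RNeasy kit for RNA and a stranded Illumina TruSeq kit for libraries. STAR 2.7.9a, Trim Galore 0.6.6, FastQC, DESeq2 and the build mm10 appear in the submitters' processing notes. The annotation, the counting tool and its use of strand were not given in the sources used here. The deposited signal is the authors' normalized count, and its values have the form of reads divided by a size factor per library: within a tolerance of 0.01, 100% of nonzero values were whole multiples of a single step per library, which recovers the reads, and edgeR on them called 10232, 7744 and 10174 genes in the 3 comparisons. Genes with at least 10 in at least 3 libraries entered limma 3.58.1 (R 4.3.3), fitted to 3 group means over all 9 libraries with a variance trend and a pseudocount of 1; the script was tested on simulated data. GENCODE M21 gave symbols, coordinates and exon lengths, and 55141 identifiers were found in it. The members and lists were chosen with earlier results of these data known. Pathway genes named are, for each list and comparison, up to 3 called genes of largest change whose groups did not overlap and whose higher group averaged at least 50; a gene named once may be given in other comparisons. A few genes that this rule names are not reported here. Genes of like pattern are the 5 of highest correlation among those with a mean of at least 50 in their highest group and a non-provisional symbol. Alternatives were pseudocounts of 0.5 and 5, no filter and a filter at 50, scaling to the same total, TMM, quantile normalization, a robust variance prior, the compared groups alone, a replicate block, edgeR 4.0.16 and DESeq2 1.42.0 on recovered reads, and each library left out. No replicate pair matched within sampling noise.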

Additional observations from a re-analysis of the deposited data

How the results depend on the processing

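The total numbers of called members and of other called pathway genes, both directions together, stayed within 1.5 times of their reported values in all 21 alternatives. The split by direction moved more: with libraries scaled to the same total, the pathway genes lower in lipid-depleted TCM than in control went from 19 to 11. For single members, 609 values kept direction and side of the threshold, 11 gained a call, 4 lost one and 6 changed sign, none of the 6 called. The sign of Lif for TCM against control turned with libraries scaled to the same total (0.13) and in 3 of the fits that left out a single library, whose values in all spanned -0.120 to 0.0394 around the reported -0.03. That of Il11 for lipid-depleted TCM against control turned in 2 such fits, whose values in all spanned -0.0747 to 0.243 around the reported 0.08. The cause was not tested. With the replicate number as a block, 7, 8 and 7 members were called, as without it, and no call of a member changed. Same-numbered libraries did not deviate together (correlations from -0.02 to 0.03 over 9 pairs), and 0 libraries correlated best with their own number in both other groups. No pairing by number was thus seen in the expression values. Whether same-numbered libraries shared an animal, culture or batch is not in the labels, and these correlations cannot show it. Same-total scaling raised the share of higher calls over all tested genes from 48.7% to 66.3% with TCM.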
